A study of Mus musculus with 8 samples.

Results

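Cytosolic ribosomal protein genes and their paralogs were described in immortalized mouse embryonic fibroblasts (MEFs) that carry or lack SLMAP3. The genes were chosen by name alone. Of the 55401 gene rows in the count table, 90 have a symbol of the form Rpl or Rps followed by a number and an optional suffix, or are Rplp0, Rplp1, Rplp2 or Rpsa, and do not carry a pseudogene suffix. They comprise 77 core genes, with 46 of the large and 31 of the small subunit, 8 paralogs (Rpl22l1, Rps27l, Rpl36al, Rpl7l1, Rpl3l, Rpl10l, Rpl39l and Rps4l) and 5 further copies that the annotation calls processed pseudogenes (Rps3a2, Rps3a3, Rpl6l, Rpl32l and Rps12l1). They lie on 19 different chromosomes.

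RNA was sequenced from 4 SLMAP3-/- and 4 wild-type (WT) lines of B6C3F1 background, each from an E14.5 embryo and each with 1 library. The SLMAP3-/- lines come from mice in which floxed exon 3 of Slmap was deleted by Cre driven by a CMV promoter, so the deletion was in all tissues. All 8 lines, WT included, were immortalized by transfection with SV40 large T antigen, a viral protein that inactivates p53 and the retinoblastoma protein, and none of the values below describes MEFs without it. The comparison of the genotypes asks whether these genes respond to the loss of SLMAP3, a tail-anchored protein of the centrosome and of the STRIPAK phosphatase and kinase complex.

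Each cytosolic ribosome holds a single copy of nearly every ribosomal protein, on a large subunit that forms peptide bonds and a small subunit that reads the mRNA. The mRNAs of these proteins share a run of pyrimidines at their 5′ end (the 5′ terminal oligopyrimidine or TOP motif), through which mTOR and LARP1 control their translation, and Myc raises transcription of the genes and of the factors that assemble ribosomes. Mammalian genomes also hold many processed pseudogenes of these genes, which are intronless copies of the mRNA, and a few expressed paralogs, several of which are known mainly from single tissues, such as Rpl3l in striated muscle and Rpl10l and Rpl39l in the testis.

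The libraries held between 49879059 and 63322486 estimated counts. The 8 fibroblast markers checked were above 0 in every line and summed to between 10233 and 14500 counts per 1000000 counts of the library (CPM), whereas 6 leukocyte markers summed to at most 5.74 CPM 4 endothelial markers to at most 28.5 CPM, 4 neural and glial markers to at most 30.2 CPM, 4 epithelial markers to at most 1.68 CPM, 4 erythroid markers to at most 0.225 CPM and 4 muscle markers to at most 0.112 CPM. Myod1 and Hbb-bs were at 0 in every line. The sums hide differences between single markers. Dcn, a fibroblast marker, was only at 0.32 to 14.8 CPM, while Kdr, at 7.87 to 28.4 CPM, made up nearly all of the endothelial sum. Tubb3, at 8.90 to 22.2 CPM, and Mbp, at 5.82 to 15.8 CPM, made up nearly all of the neural and glial sum. Slmap itself was between 32.7 and 44.3 CPM in the SLMAP3-/- lines and between 124.0 and 143.0 CPM in the WT lines, and fell by 1.84 on the log2 scale (SE 0.11, adjusted p = 0.00119 in the edgeR quasi-likelihood test with Benjamini-Hochberg adjustment). In bulk RNA, fewer cells with an mRNA and less of that mRNA in each cell cannot be told apart. The labels do not say that the lines of a genotype came from different litters or cultures, and the p-values measure the spread between these lines. WT lines 3 and 4 were more alike in their counts than any other pair of a genotype (chi-square per gene 61.7 against 111 to 247). The labels of SLMAP3-/- line 3 and WT line 4 share a number, whose meaning they do not give.

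Part of the core genes share sequence features around the start of transcription. Of the 90 genes, 65, including 57 core genes, could be matched to a RefSeq promoter window (250 bases before to 50 bases after the start of transcription, GRCm38.p6). A run of at least 7 pyrimidines (C or T on the gene's strand) reached within 5 bases of an annotated start in 26 of the 57 core genes (45.6%), against 15.7% of 27025 genes, counting a gene once where any of its windows had it. The letters CCGGAAG, on either strand, were in a window of 24 of the 57 core genes (42.1%) against 9.93% of all genes, GGGCGG in 35 of 57 (61.4% against 38.2%) and CTTTC in 47 of 57 (82.5% against 60.6%). TATAAA was in 6 of 57 (10.53% against 15.7%). These counts describe letters in a window and not binding. The 80 bases around the start (60 before, 20 after) are given here for 2 gene and paralog pairs and for Rps6. Rps6 is the small subunit protein that the mTOR-dependent S6 kinases phosphorylate. Each except Rpl22 shows a run at the start or within 5 bases of it. Capitals mark that run of pyrimidines, and the coordinates are of GRCm38.p6. The run of Rps27l ends before the start shown and so lies outside a transcript from that start. Those of Rps6, Rps27 and Rpl22l1 extend past it.
Rps6 (chr4:86857348-86857427, minus strand): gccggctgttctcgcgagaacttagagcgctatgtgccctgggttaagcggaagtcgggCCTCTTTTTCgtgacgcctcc
Rps27 (chr3:90213629-90213708, minus strand): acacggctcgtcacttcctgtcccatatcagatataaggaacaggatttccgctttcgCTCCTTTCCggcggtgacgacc
Rps27l (chr9:66946026-66946105, plus strand): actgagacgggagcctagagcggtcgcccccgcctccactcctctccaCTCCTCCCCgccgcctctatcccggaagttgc
Rpl22 (chr4:152325666-152325745, plus strand): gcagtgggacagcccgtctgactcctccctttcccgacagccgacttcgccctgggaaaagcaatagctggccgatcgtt
Rpl22l1 (chr3:28805448-28805527, plus strand): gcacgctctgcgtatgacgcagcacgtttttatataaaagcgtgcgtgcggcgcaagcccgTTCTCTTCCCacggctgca

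Rps6, Rps27, Rps27l and Rpl22l1 carried such a run in the window shown and Rpl22 did not. Where RefSeq lists a second start, as for Rps27l and Rpl22, a single window is shown. Of the 7 paralogs with a window, Rpl22l1, Rps27l and Rpl39l had the run, and Rpl36al, Rpl7l1, Rpl3l and Rpl10l did not.

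The 90 rows took 3.65%, 3.83%, 3.72% and 3.65% of the counts in SLMAP3-/- lines 1 to 4, and 4.09%, 3.96%, 3.09% and 3.03% in WT lines 1 to 4. The mean was 3.71% ± 0.0853 in SLMAP3-/- and 3.54% ± 0.560 in WT lines (SD, n = 4 each), a difference of 0.169 percentage points that was smaller than the spread of the WT lines and that turned to -0.0027 without WT line 4 and rose to 0.351 without WT line 1. All 4 SLMAP3-/- lines lay between the upper pair and the lower pair of WT lines. The core genes made up nearly all of this share (3.65% ± 0.0953 and 3.47% ± 0.552), the paralogs 0.0377% ± 0.00164 and 0.0374% ± 0.00446, and the further copies between 0.000403% in SLMAP3-/- line 2 and 0.0446% in WT line 2. The 46 core genes of the large subunit took between 1.45 and 1.67 times the counts of the 31 of the small subunit. The value of 1.67 was in SLMAP3-/- line 4, and the other lines reached at most 1.55. The separate set of 78 mitochondrial ribosomal protein genes, which build the ribosome inside mitochondria, took 0.278% ± 0.00768 in SLMAP3-/- and 0.278% ± 0.0139 in WT lines, with 0.280% in WT line 3 and 0.259% in WT line 4.

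**Figure D1:**
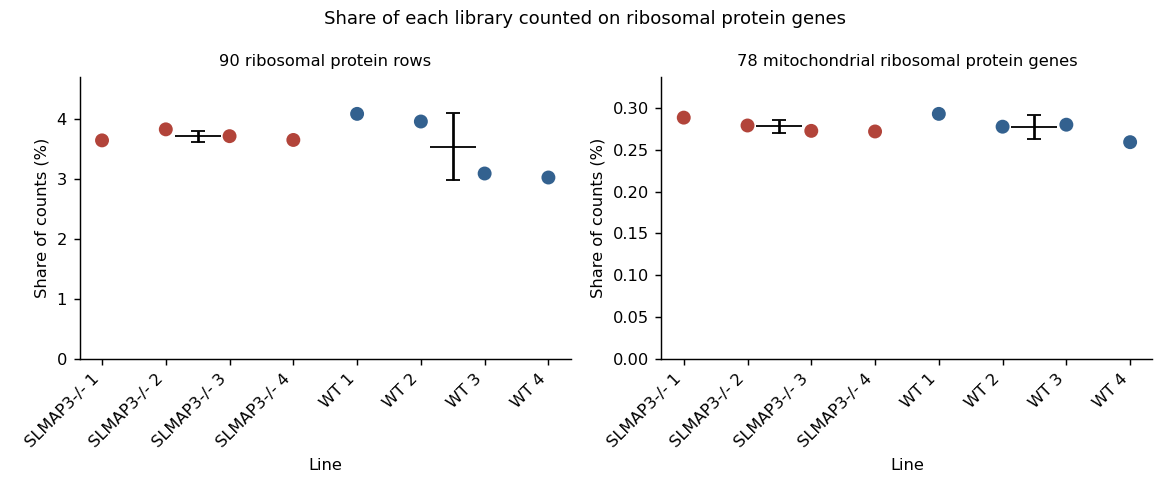
The left panel plots the share of each library's estimated counts (percent) on the 90 ribosomal protein rows and the right panel the share on 78 mitochondrial ribosomal protein genes, by line, in red for SLMAP3-/- and blue for WT. Horizontal and vertical black lines are the mean and SD of 4 lines. On the left the SLMAP3-/- lines span 3.65% to 3.83% and the WT lines 3.03% to 4.09%.

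The core genes rose and fell together over lines. As the deviation of log2 CPM from each gene's own mean over the 8 lines, the median core gene stood at 0.05, 0.08, -0.01 and 0.03 in SLMAP3-/- lines 1 to 4 and at 0.22, 0.23, -0.32 and -0.27 in WT lines 1 to 4. In WT line 4 all 77 core genes were below their own mean, and in WT line 3 all except 2, whereas 74 and 73 of the 77 were above it in WT lines 1 and 2. WT line 1 or 2 was the highest of the 8 lines for 66 of the 77 genes, WT line 3 or 4 the lowest for 74, and for 45 genes all 4 SLMAP3-/- lines lay between them. The shift was modest in size, with a median ratio of highest to lowest line of 1.54 for a core gene. The core genes share their library, so these counts over genes describe 8 libraries and are not independent of each other.

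Within a genotype the median coefficient of variation (CV) of a core gene was 5.78% over the SLMAP3-/- lines and 21.4% over the WT lines, against 17.4% and 18.6% for all 15461 tested genes. The SD of WT lines exceeded that of SLMAP3-/- lines in 70 of the 77 core genes (90.9%), against 52.3% of all tested genes. Averaged over both genotypes, the median CV was 14.0% for the 85 members that passed the filter on low counts and 13.7% for the core genes, below the 18.3% of all tested genes and above the 12.2% of the 2436 genes with at least 100 CPM and the 9.73% of the mitochondrial set. After each line's core median was subtracted, the median SD of a core gene over the 8 lines dropped from 0.22 to 0.08 on the log2 scale. Subtracting the same values from all tested genes raised theirs from 0.27 to 0.34. The line medians were computed from the core genes, which lowers the first of these values by construction.

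**Figure D2:**
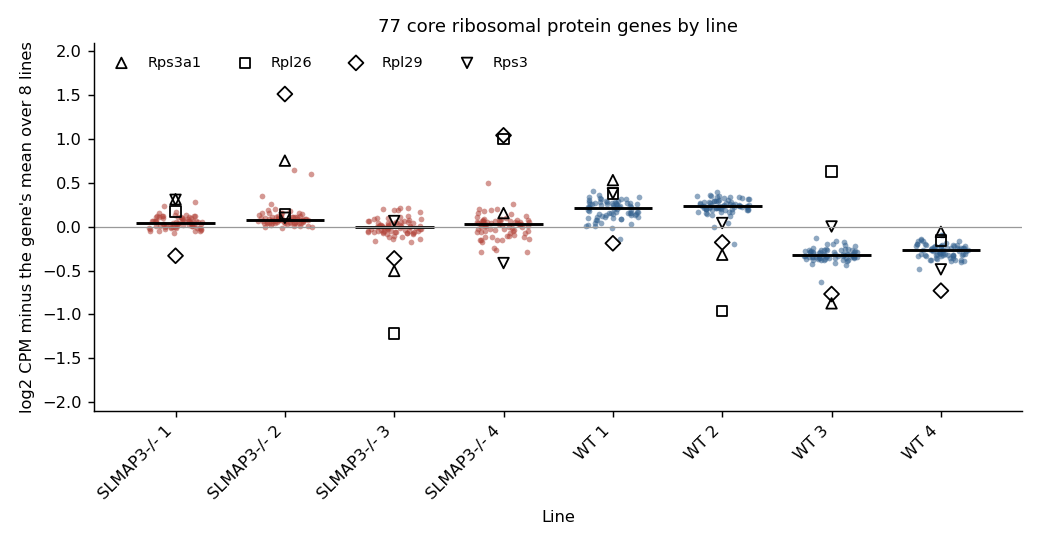
Each point is 1 of 77 core genes in 1 line, plotted as log2 CPM minus that gene's mean over the 8 lines (vertical axis, log2 units), in red for SLMAP3-/- and blue for WT. Black bars are the median in each line, at 0.22 and 0.23 in WT lines 1 and 2 and at -0.32 and -0.27 in WT lines 3 and 4. Open symbols mark Rps3a1, Rpl26, Rpl29 and Rps3, which leave the group in some of the lines.

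Of the 5 members with the highest mean CPM, Rpsa, Rplp0, Rpl4 and Rpl23a were highest in WT lines 1 and 2 and lowest in WT lines 3 and 4, whereas Rps2 was highest in SLMAP3-/- line 2. Rplp0, the base of the P stalk that recruits elongation factors, was at 1641, 1713, 1748 and 1599.7 CPM in the SLMAP3-/- lines and at 1788, 2005, 1387 and 1430.4 CPM in the WT lines, and its log2 fold change of SLMAP3-/- over WT was 0.02 (SE 0.14). Its stalk partners Rplp1 (0.08, SE 0.16) and Rplp2 (0.04, SE 0.15) behaved alike in the log2 fold change. Rpsa, the small subunit protein also known as the laminin receptor precursor, was at 1626, 1783, 1650.4 and 1526 CPM in SLMAP3-/- and at 2008, 2003, 1349 and 1372 CPM in WT lines (log2 fold change -0.03, SE 0.16). Rps6 was at 657, 671, 603 and 677 CPM in SLMAP3-/- lines and at 760.2, 760.3, 497 and 529 CPM in WT lines. Rpl5 and Rpl11, which bind 5S ribosomal RNA and restrain the p53 regulator Mdm2, ranged from 429.9 to 702 CPM and from 328 to 507 CPM, with log2 fold changes of 0.02 (SE 0.17) and 0.08 (SE 0.15). For each of these 7 genes the lines of the genotypes overlapped. Rpl4, a large subunit protein of the peptide exit tunnel, was at 1102 to 1259 CPM in SLMAP3-/- and at 881 to 1432 CPM in WT lines. Rps12, of the small subunit, had the largest fall of a core gene (log2 fold change -0.05, SE 0.20), far within the spread of its WT lines, which were at 609.8, 581, 339 and 371 CPM.

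Per kilobase of the median protein-coding transcript, Rplp0 had 1949 CPM, Rpl23a, a protein near the exit of the peptide tunnel, 1613 CPM and Rplp1 1317 CPM, while the middle core gene in this order (Rpl9, named after its values were seen) had 556 CPM. Rpl22 had 98.3 CPM per kilobase, but its median annotated transcript is 2048 bases long. The lengths come from GENCODE M21 and not from the M25 release that the authors counted on, so these values rank levels only roughly. Rpl23a had the smallest CV of the tested members, 6.22%, with 887, 906, 907 and 886 CPM in SLMAP3-/- and 977, 1014, 805 and 843 CPM in WT lines. Rps27, a zinc finger protein of the small subunit, had a CV of 8.44%, and Rpl31 and Rps15 had CVs of 9.27% and 9.35%.

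None of the 85 tested members passed an adjusted p of 0.05 between the genotypes in edgeR, where 1 of the 15461 tested genes, Slmap, passed (0.00647%). At an unadjusted p under 0.05 there was 1 member, Rpl29, against 280 of all tested genes (1.81%), and no member had genotypes whose lines did not overlap, against 194 of all tested genes (1.25%). The lowest adjusted p of a member was 0.999996. DESeq2 and limma-voom also called no member. The log2 fold changes of members ranged from -0.62 to 1.14 with a median of 0.04, and those of all tested genes had a median of -0.0014 in the same fit. Of the 77 core genes 69 had a fold change above 0 and 8 below (median 0.05), a direction that rests on single WT lines, since without WT line 3 or WT line 4 the median of the members turned to -0.04 and -0.03. The median SE of a member was 0.16, so that a genotype difference of that size in a typical gene was not detectable with these lines.

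**Figure D3:**
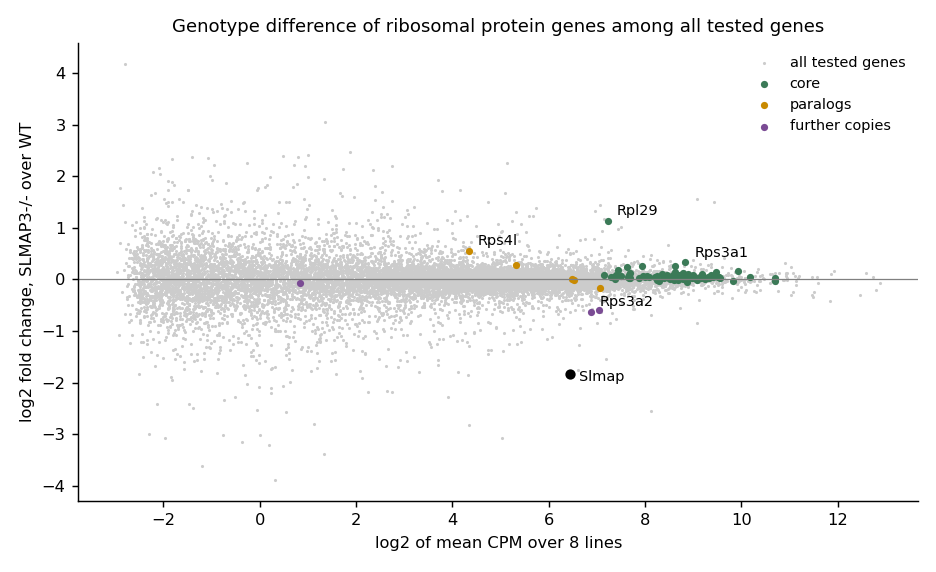
Log2 fold change of SLMAP3-/- over WT (vertical axis) against log2 of the mean CPM over the 8 lines (horizontal axis) for 15461 tested genes in grey, with core ribosomal protein genes in green, paralogs in orange, further copies in purple and Slmap in black. The green points have a median of 0.05, and 5 of the 77 lie more than 0.2 from 0, the farthest being Rpl29 at 1.14 and Rps3a1 at 0.34.

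Several of the genes that stood apart in some of the lines, though not Rps3 or Rps4l, had near-identical copies elsewhere in the genome. A copy was here a gene with at least 50% of the 31-base words of a transcript found in the protein-coding transcripts of the member. By this measure, chosen after the data were seen, 69 of the 77 core genes had a copy. All members together, paralogs included, had 315 copies, of which 290 received a count and 26 reached 1000 counts in a line. The coding sequence of Rps3a1, a small subunit protein that contacts initiation factors, has 4 of 792 aligned bases different in Rps3a2 and 9 of 795 in Rps3a3. Part of it, bases 579 to 668 counted from the first base of the start codon, shows how little sets these rows apart. The sequences are read from GENCODE M21 transcripts (GRCm38). Rps3a1 is a protein-coding gene (chr3:86137940-86142702, minus strand) and this stretch is exonic and coding, while Rps3a2 (chr14:88123017-88123808, minus strand) and Rps3a3 (chr13:108670603-108671397, plus strand) are annotated as processed pseudogenes. Capitals mark the bases that differ from Rps3a1, 2 in each copy.
Rps3a1: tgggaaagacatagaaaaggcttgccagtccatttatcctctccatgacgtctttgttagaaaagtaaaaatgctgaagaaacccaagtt
Rps3a2: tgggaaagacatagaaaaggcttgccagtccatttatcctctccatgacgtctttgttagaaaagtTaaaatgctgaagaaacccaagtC
Rps3a3: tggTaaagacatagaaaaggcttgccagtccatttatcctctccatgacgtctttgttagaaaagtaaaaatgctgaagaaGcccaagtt

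The row of Rps3a1 was at 535, 727, 304 and 480.1 CPM in SLMAP3-/- lines and at 623, 345, 235 and 414 CPM in WT lines, a CV of 37.2%. Rps3a2 had 5011, 80, 11621 and 4898 counts in SLMAP3-/- and 6771, 11930, 8541 and 3914 counts in WT lines, and Rps3a3 had 6297, 8, 12508 and 5924 counts and 8331, 12522, 9017 and 5264 counts. The pseudogene rows were nearly empty in SLMAP3-/- line 2, where Rps3a1 was highest, and were high in SLMAP3-/- line 3 and WT lines 2 and 3, where Rps3a1 was lowest. Summed over the copies, the family was at 733, 726, 693 and 689.5 CPM in SLMAP3-/- and at 871, 816, 567 and 568 CPM in WT lines, a CV of 13.0%. The row of Rps3a1 held 99.7% of the family in SLMAP3-/- line 2, between 41.4% and 43.9% in SLMAP3-/- line 3 and WT lines 2 and 3, and between 69.8% and 73.2% in the other lines, with no line between these levels. The log2 fold change of Rps3a1 was 0.34 (SE 0.33) alone and 0.01 (SE 0.16) for the sum. That of the single row was 0.12 without SLMAP3-/- line 2 and 0.63 without WT line 1.

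Rpl26, a large subunit protein near the exit tunnel, showed the same kind of steps with a different set of lines. Its row was at 207, 204, 79.0 and 369 CPM in SLMAP3-/- and at 239, 94.6, 285 and 165 CPM in WT lines. The processed pseudogene Gm15772, 2 of whose 438 aligned coding bases differ, had 8484, 7571, 15940 and 25 counts and 11104, 15329, 34 and 6937 counts. Rpl26 thus held 99.8% of its family in SLMAP3-/- line 4 and in WT line 3, 23.6% and 24.2% in SLMAP3-/- line 3 and WT line 2, and between 57.2% and 58.5% in the rest. The sum ranged only from 336 to 370.2 CPM in SLMAP3-/- lines and from 282 to 420.1 CPM in WT lines, and the CV went from 49.0% to 12.3%.

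Rpl29, a small protein of the large subunit, had the largest log2 fold change of any member. Its row was at 101, 364, 99.2 and 262 CPM in SLMAP3-/- and at 112, 113, 74.8 and 76.8 CPM in WT lines, so that SLMAP3-/- lines 2 and 4 were above every WT line and SLMAP3-/- lines 1 and 3 among them. The log2 fold change was 1.14 (SE 0.43, unadjusted p = 0.0278 and adjusted p = 0.999996 in edgeR), and it was 0.72 without SLMAP3-/- line 2. The pseudogenes Gm13841 and Gm8210, each with 3 of 483 coding bases different, had 0 counts in SLMAP3-/- line 2 and 1702 and 1414 counts in SLMAP3-/- line 4, against 5242 and 2273 in SLMAP3-/- line 1. Over all its copies the family was at 233, 363, 221 and 324 CPM in SLMAP3-/- and at 266, 248, 175 and 187 CPM in WT lines, with a log2 fold change of 0.38 (SE 0.20, unadjusted p = 0.0970). SLMAP3-/- lines 2 and 4 remained the highest of the 8 lines in the sum. The CV went from 42.6% to 22.4%.

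**Figure D4:**
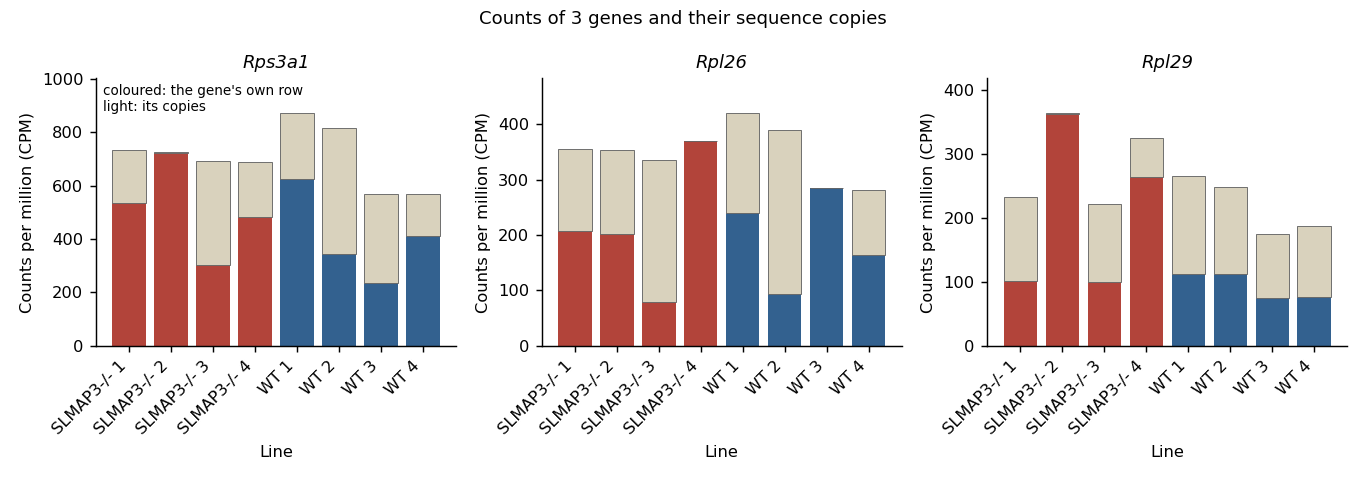
Stacked bars give CPM by line for Rps3a1, Rpl26 and Rpl29, with the gene's own row in red (SLMAP3-/-) or blue (WT) and the rows of its sequence copies in light brown on top. The coloured part changes in steps from line to line, as from 99.7% to 43.9% of the bar between SLMAP3-/- lines 2 and 3 for Rps3a1, while the full height of the bar changes less.

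The same was seen in genes with a smaller change. Rps2, whose transcribed pseudogene Rps2-ps10 differs at 5 of 879 bases, was at 919, 1492, 851 and 877 CPM in SLMAP3-/- lines and held 72.1% of its family in line 2 against 44.8% to 47.7% in the other 3. Summed with its copies, Rps2 had a CV of 13.0% in place of 27.6%, and its log2 fold change went from 0.17 to -0.02. Rpl21 was at 551 CPM in SLMAP3-/- line 4, where its copies Gm10163, Gm10240 and Gm13370 had 0 counts, and at 372 to 407 CPM in the other 3 SLMAP3-/- lines, with a CV of 17.8% alone and 13.2% in the sum. Rps18 and Rpl34, named after their values were seen, went from 22.6% to 13.4% and from 19.3% to 13.8%. Over the core genes, 6 had a CV over 20% as single rows and 2 as sums, Rpl29 and Rps3. Rps3, a small subunit protein at the mRNA entry with no copy by this measure, was at 639, 555, 540.5 and 388 CPM in SLMAP3-/- and at 673, 532, 518 and 369 CPM in WT lines, an order of lines unlike that of the core median. Its log2 fold change was 0.02 (SE 0.21). The median CV of core genes was 13.7% as single rows and 13.4% as sums, and the number of core genes with an absolute log2 fold change over 0.2 was 5 and 2. The share of the library with copies included was 3.96% ± 0.0656 in SLMAP3-/- and 3.81% ± 0.613 in WT lines. Whether reads of a copy came from its own transcript or from the parent gene was not tested.

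Among the paralogs, 5 were expressed and 3 were near 0. Rpl3l, the striated muscle form of Rpl3, had at most 4 counts in a line, Rpl10l at most 1 and Rpl39l at most 3 in every line except SLMAP3-/- line 2, where it had 29. Their partners Rpl3, Rpl10 and Rpl39 were between 553 and 868, 475 and 744, and 131 and 196 CPM. These 3 paralogs, with Rpl32l (at most 5 counts) and Rps12l1 (0 counts in all lines), did not pass the filter on low counts and were not tested. Rpl6l passed with between 1.24 and 2.64 CPM, against a parent Rpl6 with 30923 to 54204 counts.

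Rpl22l1, a paralog of the RNA-binding large subunit protein Rpl22 that Rpl22 is known to repress, was at 33.3, 45.3, 46.4 and 50.4 CPM in SLMAP3-/- lines and at 58.1, 37.6, 25.2 and 22.6 CPM in WT lines. Relative to Rpl22 in the same library it had 15.3%, 21.5%, 23.5% and 26.5% of the counts in SLMAP3-/- and 26.5%, 16.3%, 14.9% and 13.0% in WT lines. WT line 1 equalled the highest SLMAP3-/- line and SLMAP3-/- line 1 fell among the other WT lines. The mean ratio was 21.7% ± 4.71 in SLMAP3-/- and 17.7% ± 6.02 in WT lines, a log2 difference of 0.32 (SE 0.28, two-sided exact permutation p = 0.314, 0.524 after Benjamini-Hochberg adjustment over 5 pairs, n = 4 each). The smallest p that 4 lines against 4 allow is 0.0286. In CPM the log2 fold change of Rpl22l1 was 0.29 with a 95% interval of -0.28 to 0.86, and that of Rpl22 0.04 with -0.20 to 0.28. Without WT line 1 the fold change of Rpl22l1 was 0.63 and the log2 difference of the ratio 0.54, and without WT line 4 they were 0.12 and 0.20. Rpl22l1 varied more over lines than Rpl22, with CVs of 30.98% and 11.0%.

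Rps27l, a paralog of Rps27 known as a p53 target, was at 94.6, 95.5, 79.5 and 89.7 CPM in SLMAP3-/- and at 104.9, 108, 73.0 and 72.0 CPM in WT lines, the order of the core genes in the WT lines. Its counts were 43.9%, 45.5%, 39.0% and 45.9% of those of Rps27 in SLMAP3-/- lines and 51.1%, 45.4%, 40.9% and 37.8% in WT lines. The mean ratio was 43.6% ± 3.18 and 43.8% ± 5.81, with a log2 difference of -0.0013 (SE 0.11, exact permutation p = 0.971). All 8 lines had been immortalized with large T antigen, which binds p53, and the part of p53 in the level of Rps27l was not tested.

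Rpl7l1, which is known from ribosome assembly, had the largest fall of the paralogs, but no call. Its counts were 20.7%, 21.7%, 21.5% and 23.5% of those of Rpl7 in SLMAP3-/- lines and 24.7%, 23.2%, 29.2% and 25.6% in WT lines, so that SLMAP3-/- line 4 exceeded WT line 2 and the other lines were separated by genotype. The mean ratio was 21.9% ± 1.20 in SLMAP3-/- and 25.7% ± 2.56 in WT lines (two-sided exact permutation p = 0.0571, 0.286 after adjustment over 5 pairs, n = 4 each). In CPM it lay at 118 to 134 in SLMAP3-/- and at 122 to 157 in WT lines, with a log2 fold change of -0.16 (95% interval -0.35 to 0.03), and it was among the 5 tested members with the smallest CV, 8.20%. Unlike the core genes, WT line 3, at 136 CPM, was not low.

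Rpl36al had 44.3% to 53.4% of the counts of Rpl36a in SLMAP3-/- and 49.4% to 55.3% in WT lines (exact permutation p = 0.2, 0.5 after adjustment, n = 4 each). Rps4l, a paralog of the X-linked Rps4x, was the most variable member. It was at 58.6 CPM in SLMAP3-/- line 1 and at 13.8, 7.98 and 16.4 CPM in SLMAP3-/- lines 2 to 4, and at 13.2, 7.91, 21.4 and 23.2 CPM in WT lines. Its log2 fold change of 0.56 (SE 0.62) rested on SLMAP3-/- line 1 and was -0.37 without it. Rps4x itself was at 585 to 607 CPM in SLMAP3-/- lines, and the ratio of the pair did not separate the genotypes (exact permutation p = 0.800, 0.971 after adjustment, n = 4 each).

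**Figure D5:**
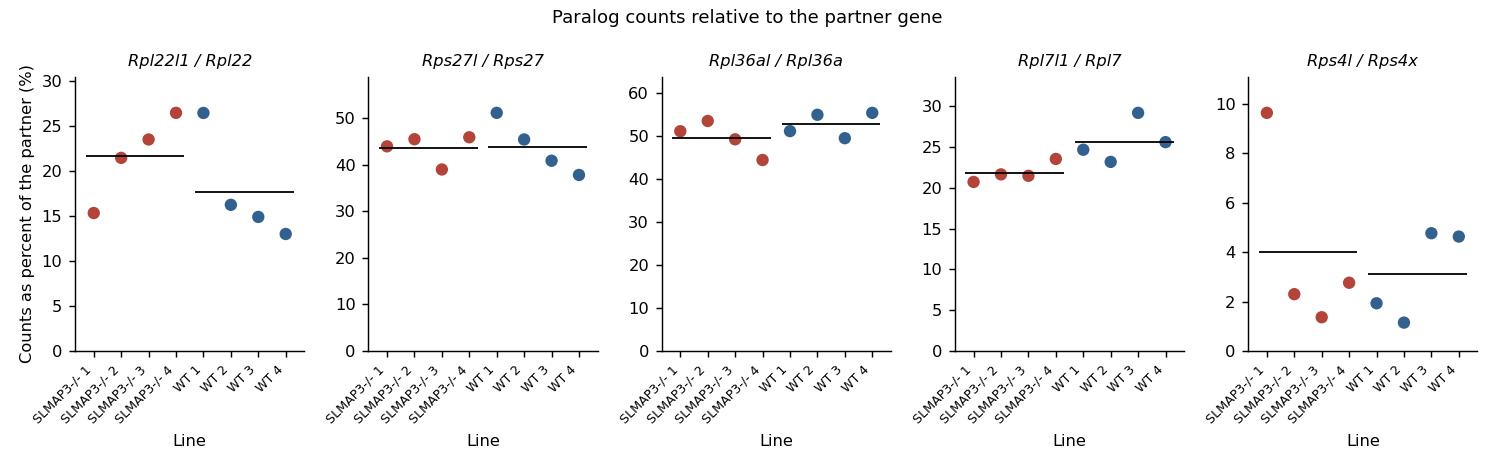
Counts of 5 paralogs as a percentage of the counts of the partner gene, by line, in red for SLMAP3-/- and blue for WT, with a black line at the mean of each genotype. The genotypes overlap in all 5 panels, and the Rpl7l1 ratio, with means of 21.9% and 25.7%, comes nearest to separation.

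The genes whose log2 CPM most resembled that of a paralog over the 8 lines were found among all tested genes. For Rpl22l1 these were Nup214, a nuclear pore protein (Pearson r = 0.983), Telo2, a partner of mTOR and related kinases (r = 0.976), and Cad, an enzyme of pyrimidine synthesis (r = 0.975), and for Rps27l they were Nob1 (r = 0.995) and Nip7 (r = 0.992), which act in ribosome assembly, and Timm10, of mitochondrial import (r = 0.994). Each is the extreme of 15460 values over 8 lines of 2 genotypes and is a description only. With the core median of each line, Rpl22l1 had r = 0.79 and Rps27l r = 0.96 over the same 8 lines.

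Other genes of the pathway were compared through the same fit. The lists held 15 translation factors and other TOP mRNAs, 33 ribosome biogenesis genes, 16 genes of mTOR, LARP1 and Myc control and 78 mitochondrial ribosomal protein genes. None of these genes passed an adjusted p of 0.05 in edgeR in either direction. None had an unadjusted p under 0.05, against 1.81% of all tested genes in the same fit. Their median log2 fold changes were 0.03, -0.01, -0.0016 and -0.00076. Fau, a ribosomal protein gene outside the name pattern whose product is made as a fusion with a ubiquitin-like protein, was at 290 to 313 CPM in SLMAP3-/- and at 236 to 322 CPM in WT lines. Eif3e, a subunit of initiation factor 3, had the lowest p of the translation factors, with 271, 254, 233 and 243 CPM in SLMAP3-/- and 295, 288, 263 and 291 CPM in WT lines (log2 fold change -0.18, SE 0.08, adjusted p = 0.999996 in edgeR). In the other lists the lowest p belonged to Ltv1, a factor of small subunit assembly (log2 fold change -0.12, SE 0.17), Rps6kb2, an S6 kinase (0.25, SE 0.14), and Mrpl42, of the mitochondrial ribosome (-0.16, SE 0.09).

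As in the core genes, WT lines 1 and 2 stood above WT lines 3 and 4 in the median of each of these lists. The full order of lines was not the same. In the mitochondrial list SLMAP3-/- line 3, at -0.086, lay below WT line 3, at -0.081. The median deviation of the translation factors was 0.23 and 0.16 in WT lines 1 and 2 and -0.24 and -0.25 in WT lines 3 and 4. The ribosome biogenesis genes ranged further, with 0.38, 0.35, -0.36 and -0.44 in WT lines 1 to 4 and 0.08, 0.13, -0.31 and 0.14 in SLMAP3-/- lines 1 to 4. SLMAP3-/- line 3 was thus low for assembly genes but at -0.01 for the core ribosomal proteins. Myc, named after its values were seen, was at 122, 141, 64.9 and 143 CPM in SLMAP3-/- and at 144, 165, 52.6 and 47.1 CPM in WT lines, low in the 3 lines in which the assembly genes were low. The median of the list of mTOR, LARP1 and Myc control, which includes Myc itself, stayed between -0.08 and 0.10. That of the mitochondrial list stayed between -0.15 and 0.12. A median does not show how far single members of a list ranged. The part of Myc in the level of ribosomal protein mRNA was not tested.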

How the data were processed

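The authors assigned the reads of stranded mRNA libraries, pooled on a single sequencing run, to GENCODE M25 transcripts (GRCm38) by Salmon and deposited an estimated count per gene and line, adjusted for the length of transcripts but not for differences between libraries. Versions are not given in the sources used here. Their second table holds their own DESeq2 comparison (fold changes and p-values) and was not used.

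Estimated counts were rounded. In R 4.3.3, edgeR 4.0.16 (filterByExpr with a minimum count of 10, TMM, glmQLFit and glmQLFTest, no covariates) was fitted to all genes, with Benjamini-Hochberg adjustment over the 15461 genes tested. CPM are TMM-normalized, and log2 CPM used a prior count of 2. Intervals of fold changes are normal 95% intervals from the SE. Permutation tests (scipy 1.17.1) are exact and two-sided. The fits were also run on simulated counts. These were drawn for each gene independently and so lack the joint shifts of the core genes between lines. Salmon splits a read that matches more than 1 transcript by estimated weights, so rows of near-identical genes share reads. Copies were sought among GENCODE M21 transcripts by words of 31 bases. Motifs were counted in RefSeq promoter windows on both strands, pyrimidine runs on the gene's strand.

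The members and lists were chosen with earlier results of these data known. The genes named are Slmap, the paralog pairs, 7 genes by role, the 5 members at each end of level, fold change and CV, and the gene with the lowest p of each list. Alternatives were DESeq2 1.42.0, limma-voom (limma 3.58.1), other size factors and filters, a replicate block, summed copies and leaving out each line.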

Additional observations from a re-analysis of the deposited data

Results flagged for a closer look

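Within each group of 4 lines, a single line stood apart from the rest in 6 of the 90 groups examined. The rule was a gap to the nearest line over the whole range above Dixon's 95% critical value. Chance would give about 4.5 in groups picked without regard to their values. Rps4l, Rpl21 and Rpl6l were named for their fold change or CV in these same data, and Rps4l counts through both its level and its ratio. The 6 can therefore not be set against that chance value. Rps4l was at 58.6 CPM in SLMAP3-/- line 1 against 7.98 to 16.4 CPM in the other SLMAP3-/- lines (gap over range 0.834), and its ratio to Rps4x, 9.65% against 1.37% to 2.76%, stood apart in the same line (0.831). Rps2 was at 1492 CPM in SLMAP3-/- line 2 against 851 to 919 CPM (0.894), the line in which its pseudogene Rps2-ps10 had 28449 counts against 53103 to 64916 in the other SLMAP3-/- lines. Rpl36a was at 181 CPM in SLMAP3-/- line 1 against 188 to 189 CPM (0.876), a narrow range. Rpl21 was at 451 CPM in WT line 1 against 319 to 341 CPM (0.835), and Rpl6l at 2.64 CPM in WT line 1 against 1.51 to 1.64 CPM (0.884).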

How the results depend on the processing

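The count of members past the threshold was 0 under every alternative tried. Over all genes the count was 1 in edgeR and 11 with DESeq2. The replicate numbers were not taken to pair lines, since no label says that a number marks a shared litter, batch or day. The deviations of same-numbered lines had correlations of -0.16, 0.06, 0.19 and -0.0032. Those of differently numbered lines ranged from -0.16 to 0.18. Whether same-numbered lines shared a litter, batch or day cannot be told from these values. With the number as a replicate block the count of genes was 0 (294 at an unadjusted p under 0.05), and Slmap had an adjusted p of 0.171 with its log2 fold change at -1.84. With the block the count of members was 0, the median log2 fold change of members 0.07 in place of 0.04 and the difference in share 0.169 percentage points. Blocked sign-flip tests of the ratios gave an exact p of 0.5 for Rpl22l1 and 1.00 for Rps27l.

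The difference in share ranged from -0.0027 percentage points without WT line 4 to 0.351 without WT line 1, the median log2 fold change of members from -0.04 to 0.14 and the median CV from 13.3% to 14.8% over the fits without 1 line. The median CV was 11.6% with library totals as the only scaling and 13.4% with summed copies. Of 659 fold changes of 39 named genes under alternatives, 599 kept their direction and side of the threshold and 59 of 24 genes turned sign, none of them called and 53 of them in fits without 1 line. The others were Rps27l at -0.0039 (DESeq2) and -0.0023 (DESeq2 size factors), Rpl36al at 0.0032 (limma-voom) and 0.0029 (replicate block), and Rps2 at -0.023 (named pseudogenes) and -0.022 (sequence copies). The log2 fold changes of those that turned in such fits ranged as follows: Rps27l -0.086 to 0.11, Rpl36al -0.11 to 0.11, Rps4l -0.37 to 0.85, Rpl22 -0.032 to 0.12, Rps27 -0.037 to 0.11, Rpl36a -0.0039 to 0.17, Rpl7 -0.022 to 0.14, Rpl10 -0.088 to 0.13, Rpl39 -0.041 to 0.16, Rps4x -0.067 to 0.13, Rplp0 -0.058 to 0.13, Rplp1 -0.023 to 0.21, Rplp2 -0.046 to 0.13, Rpsa -0.13 to 0.069, Rps6 -0.069 to 0.14, Rpl5 -0.079 to 0.17, Rpl11 -0.016 to 0.19, Rpl4 -0.057 to 0.18, Rps2 -0.059 to 0.30, Rpl23a -0.077 to 0.036, Rpl6l -0.23 to 0.16, Rps12 -0.18 to 0.098, Rpl26 -0.26 to 0.41 and Rps15 -0.031 to 0.12. Without a turn of sign, Rpl22l1 ranged from 0.12 to 0.63, Rpl29 from 0.72 to 1.37, Rps3a1 from 0.12 to 0.63, Rpl21 from 0.13 to 0.40, Rps3a2 from -1.22 to -0.21 and Rps3a3 from -1.10 to -0.17. The log2 ratio of Rps27l to Rps27 ranged from -0.069 to 0.076. Only the turn of Rps4l exceeded the SE of its fold change. With 4 lines a genotype, shifts of all core genes as large as those between WT lines limit what this comparison can detect, whatever the depth.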

Other observations

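Further pseudogene rows outside the members had counts that differed widely between lines of the same genotype. Rpl15-ps6, a copy of the large subunit gene Rpl15, had 1762 counts in SLMAP3-/- line 3 and 1796 in WT line 2 and at most 7 in the other 6 lines, and Rpl15-ps2 had 1697 and 1444 counts in the same 2 lines and at most 5 elsewhere. These are the lines in which Rpl26 held 23.6% and 24.2% of its family. Rps7-ps3 had 2085 counts in SLMAP3-/- line 3, 1318 in WT line 4 and 172 to 342 in the rest. Rps26-ps1 had 159 and 138 counts in WT lines 1 and 4 and 1103 to 3217 in the others. Rpl3-ps1 had 246 counts in SLMAP3-/- line 2, the line in which Rps3a2 and Rps3a3 were nearly empty, and 2980 to 9395 in the others. These rows were chosen after their values were seen.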
